A study of Saccharomyces cerevisiae with 2 samples.

Results

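The genes described here are 10 genes of inositol and phospholipid regulation in the budding yeast Saccharomyces cerevisiae, taken by systematic name from a table of 7163 features. They are INO1 (YJL153C), ITR1 (YDR497C), ITR2 (YOL103W), OPI1 (YHL020C), INO2 (YDR123C), INO4 (YOL108C), CHO1 (YER026C), CHO2 (YGR157W), OPI3 (YJR073C) and GIT1 (YCR098C). All 10 were in the table and all 10 passed the filter of 1 FPKM in either strain. RNA sequencing compared 2 strains, MF02, labelled wild type, and UV02_HG, for which the labels give the strain name as the genotype and no allele. Both were in mid-exponential growth at 40% (w/v) glucose, so high glucose is common to both and its effect cannot be read from these data. By its title the series is about high glucose tolerance, and the comparison made is UV02_HG against MF02. The labels give 1 sample per strain, and the table has 2 columns of values for each. The series' design text says the profiles were made in duplicate, but the sources do not say if the columns are separate cultures or repeat runs of 1 culture. Here they were read as runs of 1 sample, so no test was run and no difference below has a replicate check. If the columns are separate cultures, the column ranges given below are the spread between replicates, and otherwise they are technical.

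Inositol is the head group of phosphatidylinositol and a signal for the whole phospholipid pathway in yeast. Cells make it from glucose 6-phosphate through Ino1, or import it through Itr1 and Itr2. The basic helix-loop-helix proteins Ino2 and Ino4 bind together to an upstream element of INO1, ITR1 and other pathway genes, called UAS-INO, and activate them. The repressor Opi1 shuts such genes down when inositol is plentiful by acting on Ino2. Opi1 is held at the endoplasmic reticulum by phosphatidic acid and Scs2, so that lipid supply sets how much of it reaches the nucleus. The same element controls CHO1, CHO2 and OPI3, which lead from CDP-diacylglycerol through phosphatidylserine and phosphatidylethanolamine to phosphatidylcholine.

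The Ino2-Ino4 element was searched for as CATGTGAA, or TTCACATG on the opposite strand, in the 500 bases before each start codon of the RefSeq R64 reference, which is the strain S288C. The sequences of MF02 and UV02_HG were not used here and may differ, and a match is a description of letters, not of binding. The element was found before 6 of the 10 genes (INO1, ITR1, INO2, INO4, CHO1 and CHO2) and before 87 of 6019 protein-coding genes with a full window (1.45%). INO1, ITR1 and CHO2 had it at 2 positions each. The 6-base core CATGTG, which lies inside the 8-base element and was also searched on both strands, was found before 7 of the 10, OPI3 being the added one, and before 13.1% of all genes. Neither was found before ITR2, OPI1 or GIT1. Only these exact letters were searched, so a gene without a match may still hold a variant of the element. The stretches that hold the element are shown because they are what most of these genes share beyond their function. Each is 100 bases of R64 on the strand of the gene, 5′ to 3′, with the element in capitals, and with the 6-base core in capitals for OPI3.
INO1: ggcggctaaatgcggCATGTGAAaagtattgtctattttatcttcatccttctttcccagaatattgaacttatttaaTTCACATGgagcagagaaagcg
ITR1: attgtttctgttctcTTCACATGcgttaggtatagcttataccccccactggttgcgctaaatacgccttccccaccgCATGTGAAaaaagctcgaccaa
INO2: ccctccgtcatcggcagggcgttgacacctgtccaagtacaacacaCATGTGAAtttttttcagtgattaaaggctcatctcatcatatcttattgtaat
INO4: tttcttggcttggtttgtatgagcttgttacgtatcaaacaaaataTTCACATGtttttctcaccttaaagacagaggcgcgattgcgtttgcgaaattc
CHO1: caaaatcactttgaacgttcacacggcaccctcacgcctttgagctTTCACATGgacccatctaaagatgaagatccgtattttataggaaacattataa
CHO2: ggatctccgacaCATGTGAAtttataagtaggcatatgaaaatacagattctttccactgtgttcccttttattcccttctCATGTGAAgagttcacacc
OPI3: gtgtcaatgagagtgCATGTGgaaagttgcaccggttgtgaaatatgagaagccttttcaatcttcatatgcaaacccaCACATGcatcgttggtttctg

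Counted back from the base before the start codon, the INO1 stretch (chromosome X) runs from 258 to 159 and its elements begin at 243 and 180. The ITR1 stretch (chromosome IV) runs from 299 to 200, with elements at 284 and 221. In both genes the pair of elements lies 63 bases apart on opposite strands. The INO2 stretch (chromosome IV) runs from 190 to 91, that of INO4 (chromosome XV) from 169 to 70, and that of CHO1 (chromosome V) from 207 to 108. Their single elements begin at 144, 123 and 161. The CHO2 stretch (chromosome VII) runs from 348 to 249 with elements at 336 and 267, and the OPI3 stretch (chromosome X) from 227 to 128 with cores at 212 and 148. At INO2 and at CHO2 a second core on the opposite strand overlaps the element by 4 of its 6 bases.

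**Figure D1:**
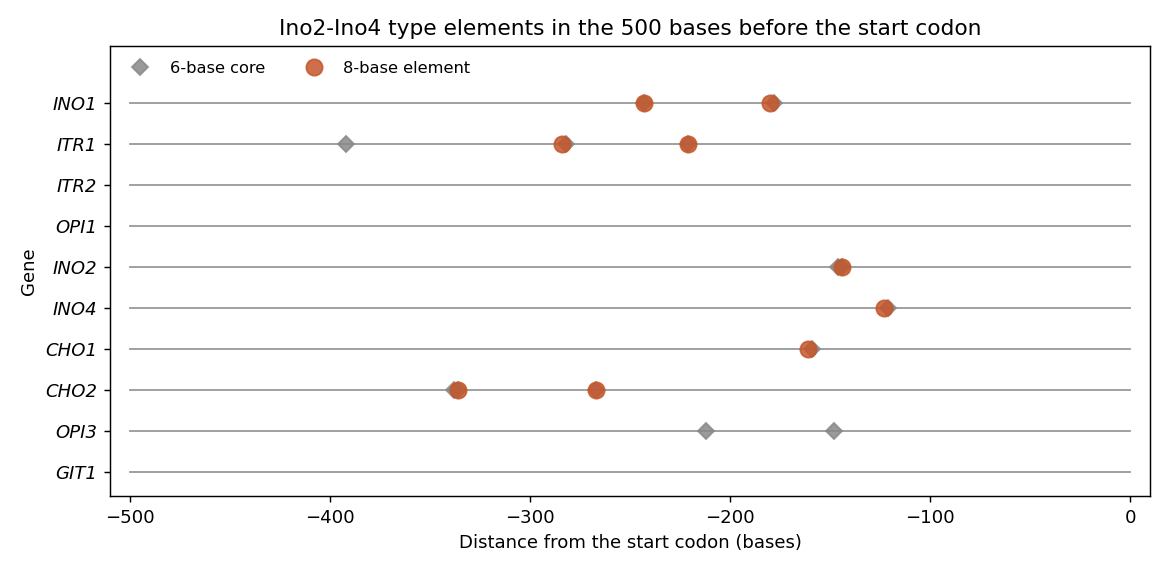
Positions of the 8-base element (circles) and of the 6-base core (diamonds) in the 500 bases before the start codon of each gene, in bases, on either strand. The element lies before 6 of the 10 genes, and ITR2, OPI1 and GIT1 have neither.

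Values are FPKM, fragments scaled by gene length and library size. The ratio of a gene is log2((FPKM + 1) ratio), UV02_HG over MF02, of the column means, and a ratio of 1 or more in size is called 2-fold. It is followed by its range over the 4 pairs of single columns, 1 from each strain. The columns rested on 12507299 to 15144991 counted reads. Over 6291 features the median ratio was -0.89, and among genes it followed coding length (Spearman's rho = -0.53 across 5695 genes, which are not independent replicates). The median was 0.49 in the 833 genes over 300 and up to 600 nt and -1.44 in the 1597 genes over 1200 and up to 2000 nt. MF02 column 2 over column 1 also followed length, with a rho of 0.62, whereas the UV02_HG columns gave 0.07. Each gene is therefore also given relative to genes of the same length, as its ratio minus the median ratio of the genes nearest in coding length, itself included with 100 on each side. In bulk RNA, fewer cells that carry an RNA and less of it per cell cannot be told apart.

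GIT1, INO2 and INO1 were far lower in UV02_HG, and the other 7 genes lay within 2-fold of genes of the same length. As deposited, 5 of the 10 were at least 2-fold lower, against 47.2% of all features, and 0 were at least 2-fold higher, against 14.7%. Relative to length, 3 of 10 were at least 2-fold lower, against 16.8% of all genes, and 0 were higher, against 17.1%. The median ratio of the 10 genes was -0.95 as deposited and -0.10 relative to length, next to -0.89 over all features and 0 over all genes relative to length. The medians of the set were thus near the background. Relative to length GIT1 was the 16th, INO2 the 53rd and INO1 the 483rd lowest of 5695 genes, so that INO1 was much less extreme than the other two. Those 3 passed 2-fold lower relative to length in all 4 column pairs, which 7.8% of all genes did. As deposited, they and ITR1 were so in all 4 pairs, as were 24.9% of all features.

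**Figure D2:**
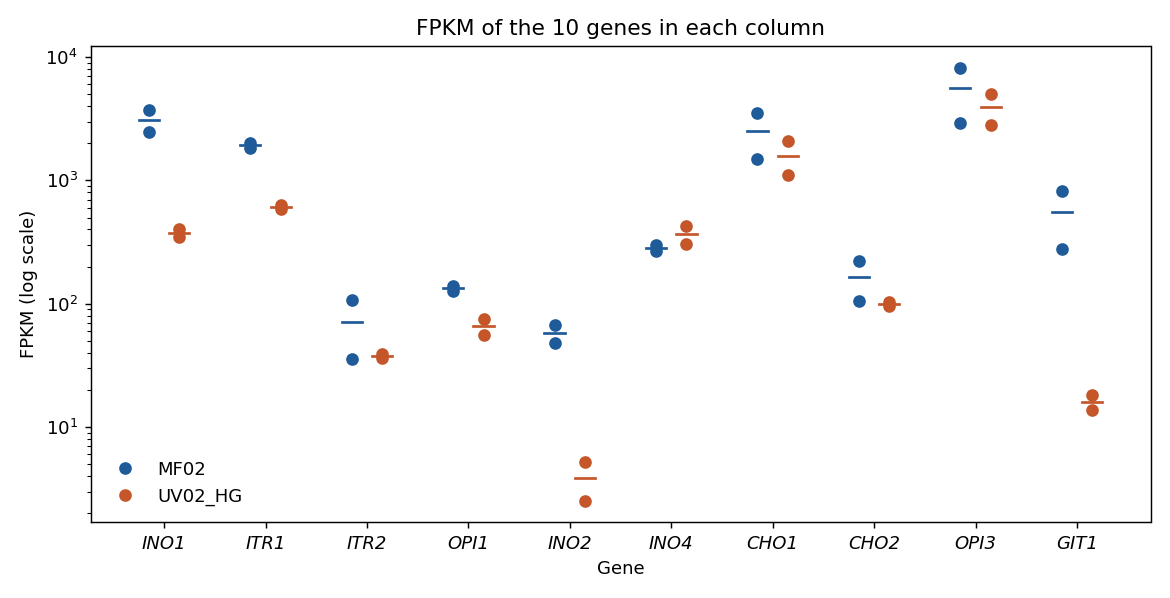
FPKM on a log axis of the 10 genes, with 1 point per column (MF02 blue, UV02_HG orange) and a bar at the mean of each strain. The columns of the strains lie far apart for INO1, INO2 and GIT1, and overlap for ITR2, CHO1 and OPI3.

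Of the inositol supply genes, INO1 was lower in UV02_HG by far more than genes of its length, whereas the transporter genes were not. INO1 encodes inositol-3-phosphate synthase, the committed step of inositol synthesis. Its FPKM was 2458 and 3711 in MF02 against 349 and 404 in UV02_HG. Both UV02_HG columns were below both MF02 columns, as were those of 56.4% of all features. The ratio was -3.03 (-3.41 to -2.60), or 8.17-fold lower (6.07 to 10.6), and -1.43 (-1.79 to -1.26) relative to length. Only 4 of the 200 other genes nearest in length, from 1557 to 1656 nt, had a lower ratio. Its level moved from the 98.2 and 99.5 percentile of features in the MF02 columns to the 91.2 and 92.0 percentile in UV02_HG, so it was still among the more abundant RNAs.

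ITR1, the gene of the main inositol transporter, had 2024 and 1836 FPKM in the MF02 columns against 591 and 630 FPKM in those of UV02_HG. Its columns were close within each strain and apart between them. The ratio was -1.66 (-1.77 to -1.54), 3.16-fold lower, but genes of its length (1755 nt) had a median of -1.58, so that ITR1 stood at -0.07 relative to length (-0.71 to 0.43). ITR2, the gene of the second inositol transporter, had 35.7 and 106 FPKM in the MF02 columns against 39.1 and 36.5 FPKM in those of UV02_HG. Here MF02 column 1 was level with UV02_HG and only MF02 column 2 was higher. Its ratio was -0.89 (-1.52 to 0.13), and 0.54 relative to length (0.24 to 1.10). The coding sequences of ITR1 and ITR2 are 74.1% identical over 1747 aligned bases of R64 and share none of their stretches of 50 bases, nor does any of the 10 genes share one with another coding sequence. ITR1 was 56.7 and 17.3 times ITR2 in FPKM in the MF02 columns and 15.1 and 17.3 times in UV02_HG, so the proportion of the transporters was alike in 3 of the 4 columns.

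The regulators parted. INO2, which carries the activation domain of the Ino2-Ino4 pair, had 48.2 and 67.5 FPKM in the MF02 columns against 2.53 and 5.20 FPKM in those of UV02_HG. These values rest on 564 and 935 reads in MF02 and on 29 and 62 reads in UV02_HG, with exact 95% Poisson intervals of 19.4 to 41.6 and 47.5 to 79.5 reads that cover counting error only. The counts are small in UV02_HG, and its columns differed 2.05-fold. The ratio was -3.60 (-4.28 to -2.99), 12.1-fold lower on the FPKM + 1 scale (7.94 to 19.4). Without the added 1, the column pairs ran from 9.27-fold to 26.6-fold lower. Relative to length it stood at -2.60 (-3.33 to -1.9998), with 4 of the 200 other genes of its length lower.

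INO4, the constitutive partner, was not lower. It had 267 and 299 FPKM in the MF02 columns against 308 and 425 FPKM in those of UV02_HG, so that both UV02_HG columns were above both MF02 columns, as they were for 20.7% of all features. Its ratio of 0.37 (0.04 to 0.67) was near the median of genes as short as it (456 nt), at -0.12 relative to length (-0.59 to 0.36). It turned to -0.76 when the columns were rescaled to equal FPKM totals. INO4 had 5.54 and 4.43 times the FPKM of INO2 in the MF02 columns and 121 and 81.8 times in UV02_HG. The activator genes thus stood further apart in UV02_HG, while genes of the length of INO4 had a median ratio of 0.495 and those of the length of INO2 one of -0.997.

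OPI1, the repressor gene, had 140 and 127 FPKM in the MF02 columns against 56.1 and 75.4 FPKM in those of UV02_HG. The columns did not overlap, and the ratio was -1.01 (-1.30 to -0.74), just past 2-fold. Genes of its length had a median of -1.37, and OPI1 stood at 0.36 relative to length (-0.32 to 0.80). The FPKM of OPI1 was 2.91 and 1.88 times that of INO2 in MF02 and 22.2 and 14.5 times in UV02_HG, so the repressor gene exceeded the activator gene in all 4 columns and by more in UV02_HG.

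**Figure D3:**
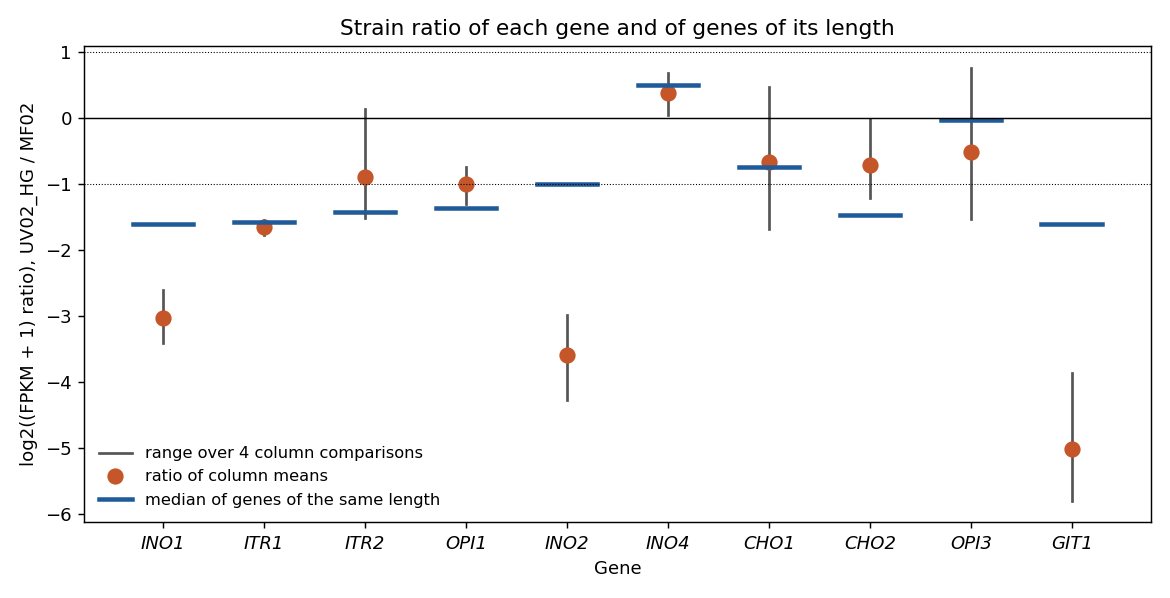
Log2 ratio of UV02_HG to MF02 for each gene (orange), its range over the 4 column pairs (grey line) and the median ratio of the genes nearest in coding length (blue bar), with dotted lines at 2-fold. GIT1, INO2 and INO1 lie below their blue bars over the whole range, and the grey lines of ITR2, CHO1 and OPI3 cross 0.

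For the genes that lead to phosphatidylcholine no 2-fold difference between the strains was seen in the column means, but the columns disagreed within a strain by up to 2.79-fold, so that a difference cannot be judged. With equal FPKM totals CHO1, CHO2 and OPI3 were all at least 2-fold lower, at -1.70, -1.90 and -1.53. CHO1 encodes phosphatidylserine synthase and had 3525 and 1495 FPKM in the MF02 columns against 2073 and 1097 FPKM in those of UV02_HG. The strains overlapped, since UV02_HG column 1 was above MF02 column 2. The ratio was -0.66 (-1.68 to 0.47), and 0.08 relative to length (-0.90 to 1.22).

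CHO2 encodes the first methyltransferase from phosphatidylethanolamine towards phosphatidylcholine. It had 106 and 224 FPKM in the MF02 columns against 104 and 95.2 FPKM in those of UV02_HG, so that MF02 column 1 was barely above UV02_HG. The ratio was -0.72 (-1.22 to -0.02), and 0.75 relative to length (0.50 to 0.95), the highest of the 10 genes. OPI3 encodes the methyltransferase of the last steps and had the highest column mean of the 10 in both strains on the FPKM scale, although INO1 was higher in MF02 column 2. It had 8219 and 2942 FPKM in the MF02 columns against 2831 and 4979 FPKM in those of UV02_HG. MF02 column 1 was 2.79 times column 2, and the strains overlapped. Its ratio was -0.51 (-1.54 to 0.76), and -0.48 relative to length (-1.74 to 0.95). OPI3 was 77.8 and 13.2 times CHO2 in the MF02 columns and 27.2 and 52.3 times in UV02_HG, so that the values of UV02_HG lay between those of MF02. These multiples were not adjusted for length. Genes of the length of OPI3 (621 nt) had a median ratio of -0.04 and those of the length of CHO2 (2610 nt) one of -1.47.

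GIT1 had the lowest ratio of the 10. It encodes the plasma membrane transporter of glycerophosphoinositol, a product of phosphatidylinositol breakdown that yeast can take up as a source of inositol and phosphate, and it is known to respond to both nutrients. It had 278 and 823 FPKM in the MF02 columns against 18.2 and 13.8 FPKM in those of UV02_HG. The MF02 columns differed 2.96-fold, and the lower of them was still far above both UV02_HG columns, which rested on 355 and 281 reads. The ratio was -5.02 (-5.80 to -3.86), and -3.41 relative to length (-3.89 to -2.84). None of the 200 other genes nearest in length was lower. Its level went from the 88.6 and 95.9 percentile of features in MF02 to the 53.5 and 46.3 percentile in UV02_HG.

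**Figure D4:**
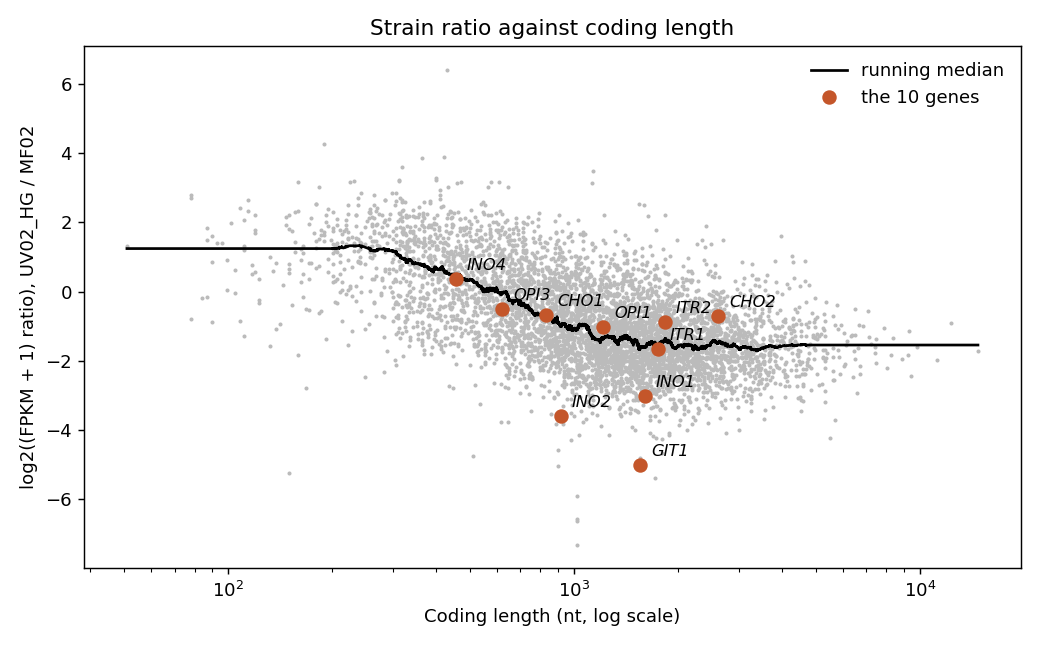
Log2 ratio of UV02_HG to MF02 against coding length (nt, log axis) for 5695 genes (grey), with the running median over genes of like length (black) and the 10 genes (orange). INO4, CHO1 and ITR1 lie close to the median line, OPI1, ITR2 and CHO2 somewhat above it, OPI3 somewhat below it, and INO1, INO2 and GIT1 well below it.

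Ordered by level, OPI3, INO1, CHO1 and ITR1 led in MF02, at column means of 5580, 3084, 2510 and 1930 FPKM, and the column ranges of OPI3, INO1 and CHO1 overlapped, as did those of CHO1 and ITR1. GIT1 and INO4 followed at 551 and 283 FPKM, then CHO2 and OPI1 at 165 and 133 FPKM and ITR2 and INO2 at 71.0 and 57.8 FPKM. Within each of these pairs the columns overlapped. In UV02_HG the order was OPI3, CHO1, ITR1, INO1, INO4, CHO2, OPI1, ITR2, GIT1 and INO2, from 3905 to 3.86 FPKM. Only INO1 and INO4, at 377 and 366 FPKM, were neighbours whose columns overlapped. INO1 went from place 2 to place 4 and GIT1 from place 5 to place 9, while INO2 had the lowest column mean in both strains. In MF02 column 1 ITR2 was below INO2, at 35.7 against 48.2 FPKM. The places were not adjusted for length. Genes of the length of INO4 had a median ratio of 0.495 and those of the length of INO1 one of -1.60.

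The genes that hold the element did not share a ratio. Of the 6 with the 8-base element, INO1 and INO2 were low relative to length, and ITR1, INO4, CHO1 and CHO2 ran from -0.12 to 0.75. The pairs of elements of INO1 and ITR1, alike in spacing, went with -1.43 and -0.07. GIT1, the lowest gene, had no element in the window, and no match says nothing about Ino2 and Ino4 at that gene. The Pho4 type letters CACGTG and CACGTT, searched on both strands because GIT1 responds to phosphate, were not found before GIT1 either. CACGTG was found before OPI3 and before 6.21% of all genes, and CACGTT before OPI1 and CHO2 and before 16.0% of all genes.

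Other genes of the pathway were read from 10 lists of 89 genes, all expressed. Relative to length, 15 of the 89 (16.9%) were at least 2-fold lower and 11 (12.4%) at least 2-fold higher, next to 16.8% and 17.1% of all genes. Within the first list, inositol and phosphatidylinositol synthesis, the genes went apart. INM1, an inositol monophosphatase gene that completes the reaction begun by Ino1, had 35.1 and 229 FPKM in the MF02 columns against 9.54 and 7.17 FPKM in those of UV02_HG. Its ratio was -3.83 (-4.81 to -1.78), 14.2-fold lower, and -2.95 relative to length (-3.73 to -1.15). The size rests on MF02 column 2, since with MF02 column 1 alone INM1 was 3.86-fold lower and with column 2 alone 24.6-fold lower. INM2, the second such gene, stood at -0.84 relative to length (-0.97 to -0.57). PIS1, the phosphatidylinositol synthase gene, had 1506 and 448 FPKM in the MF02 columns against 3212 and 1756 FPKM in those of UV02_HG. Both UV02_HG columns were above both MF02 columns, at 2.54-fold higher, a ratio of 1.35 (0.22 to 2.84), and 1.61 relative to length (0.61 to 3.08). With MF02 column 1 alone the ratio of PIS1 was 0.72, within 2-fold. INO1, INM1 and INM2 were lower in every column pair as deposited, as were 56.4% of all features. PIS1, whose product uses the inositol, was higher in every one, as were 20.7% of all features. The amounts differed widely between columns for INM1 and PIS1, and INM2 was within 2-fold relative to length.

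Among the 10 other regulators of INO1, 3 were at least 2-fold lower and 1 higher relative to length, with a median of -0.31. SIN3 and RPD3, of a histone deacetylase complex that represses INO1, stood at -1.14 (-1.31 to -0.9987) and -1.25 (-1.29 to -1.16). The stress sensor gene IRE1 of the endoplasmic reticulum stood at -1.12 (-1.56 to -0.82), at low levels of 9.01 and 20.9 FPKM in the MF02 columns against 0.86 and 1.72 FPKM in those of UV02_HG. HAC1, the transcription factor gene whose RNA Ire1 splices, stood at 1.89 (0.90 to 3.69), with 5519 and 925 FPKM in the MF02 columns against 8562 and 9564 FPKM in those of UV02_HG. With MF02 column 1 alone its ratio as deposited was 0.72, within 2-fold. The values do not tell spliced from unspliced RNA.

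In the list of phosphatidic acid and diacylglycerol genes, 2 of 12 were at least 2-fold lower and 3 higher relative to length, with a median of 0.39. SLC1, an acyltransferase gene of phosphatidic acid synthesis, and DGK1, the diacylglycerol kinase gene, stood at -1.23 (-1.87 to -0.74) and -1.43 (-1.86 to -0.97). TAM41, the mitochondrial CDP-diacylglycerol synthase gene, and DPP1, a phosphatase gene, stood at 1.21 (1.12 to 1.30) and 1.12 (0.61 to 1.78). The choline and ethanolamine branch had 1 of 7 lower and 1 higher (median -0.23). CKI1, the choline kinase gene, stood at -1.28 relative to length (-1.38 to -1.17) and was 7.15-fold lower as deposited. HNM1, the choline transporter gene, stood at 1.11 relative to length (0.18 to 1.83) but was 1.30-fold lower as deposited, at -0.38 (-0.84 to -0.01). Relative to length CPT1 stood at 0.90 and EPT1 at -0.76. Of the 5 phosphatidylserine decarboxylase and cardiolipin genes 1 was lower, GEP4 at -1.53 (-2.05 to -0.84), with PSD1 at -0.63, PSD2 at -0.32 and PGS1 at 0.68. Of the 7 phospholipase genes 0 passed 2-fold in either direction relative to length, with PLB1 at -0.96 and GDE1, which breaks down the glycerophosphocholine that Git1 can also import, at -0.26. PLB3 and SPO14 stood at 0.34 and 0.32.

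Among users of phosphatidylinositol, the phosphoinositide kinases and phosphatases had 1 of 12 lower and 2 higher relative to length (median 0.31). The phosphatase gene SAC1 stood at -1.37 (-1.77 to -0.78) and the kinase gene VPS34 at 1.10 (0.65 to 1.40). LSB6 and INP51 stood at 0.71 and -0.69. The inositol polyphosphate list had 1 of 6 lower and 1 higher (median 0.23), with DDP1 at -1.43 (-1.68 to -1.09) and VIP1 at -0.91. SIW14 stood at 0.96 (0.17 to 1.86) and IPK1, the kinase gene of phytate synthesis, at 1.06 (0.15 to 2.24). Inositol sphingolipid synthesis had 2 of 13 lower and 1 higher (median -0.10). There LCB1, a serine palmitoyltransferase subunit gene, stood at -1.41 (-1.85 to -1.08) and SUR1 at -1.18 (-1.37 to -0.95). ISC1 stood at 0.83 (-0.15 to 1.61) and the ceramide synthase gene LAG1 at 1.44 (1.22 to 1.47). Phosphate starvation genes, set beside GIT1, had 3 of 14 lower and 1 higher (median -0.36). The 1 higher was PHO89 at 2.29 (1.62 to 2.84), a gene near the filter. It had 0.77 and 0.65 FPKM in the MF02 columns against 2.04 and 1.73 FPKM in those of UV02_HG. VTC4, PHO86 and VTC1 stood at -1.64 (-1.76 to -1.54), -1.53 (-2.47 to -0.58) and -1.30 (-1.45 to -0.95). PHM8 stood at 0.96 (0.77 to 1.26), and all 14 stood above the -3.41 of GIT1.

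**Figure D5:**
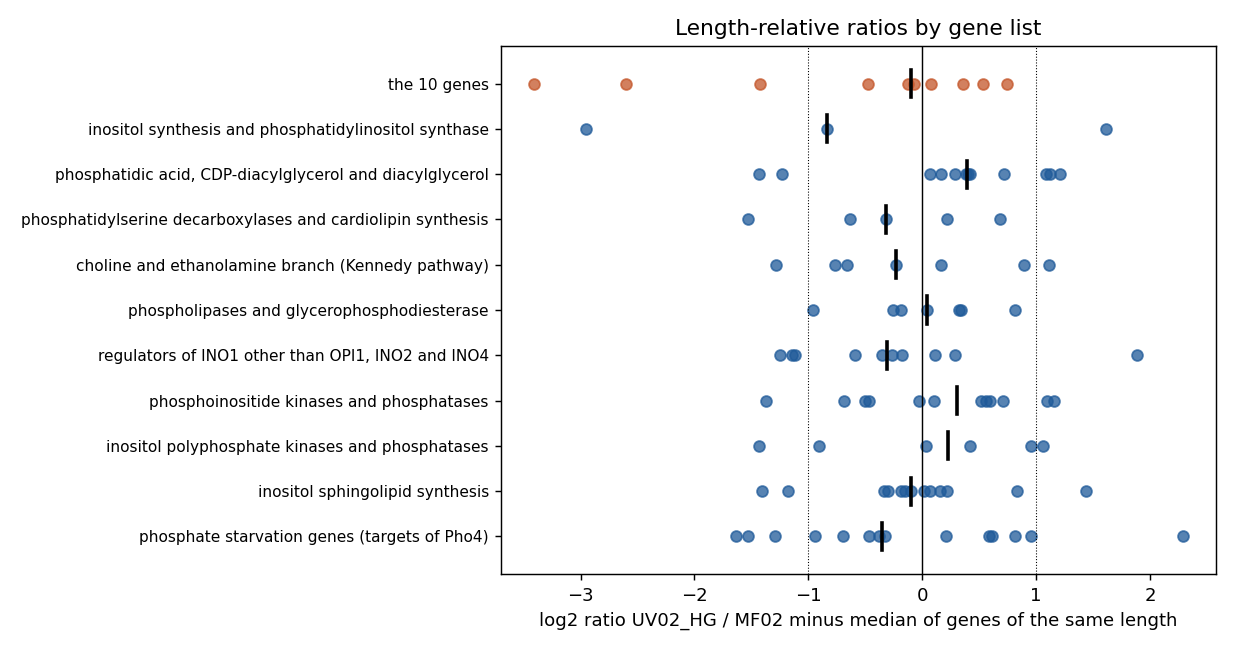
Log2 ratio of UV02_HG to MF02 relative to genes of the same length, with 1 point per gene and a black bar at the median, for the 10 genes (orange) and the 10 lists (blue), and dotted lines at 2-fold. The medians of the lists lie between -0.84 and 0.39, and GIT1, INM1 and INO2 are the lowest points.

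The 4 nearest protein-coding neighbours of INO2 ran from -0.74 to 2.002 relative to length, and 0 of them were at least 2-fold lower. Of the 3 neighbours of GIT1 on chromosome III with a value, YCR099C, directly beside it, was at least 2-fold lower, at -1.52, and the highest was HMRA1 at 1.28. Of the 4 neighbours of INO1, VPS35 and SNA3 were at least 2-fold lower, at -1.002 and -1.27, and FBP26 and DAS1 were not. By the pattern over the 4 columns, measured as the distance of log2(FPKM + 1) values centred on each gene's mean, the genes most like INO1 among 5263 were QNS1, TWF1, AFT2, YAK1 and PTA1, at distances of 0.12 to 0.15. Those most like GIT1 were THI22, THI72, YHR175W-A, BRE5 and PDC5, at 0.37 to 0.87. With only 4 columns many genes share a pattern by their strain ratio alone.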

How the data were processed

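The authors deposited 1 table of FPKM values for 7163 features, with 2 columns per strain per the file headers; 4 further lines were empty. Per the submitters' processing notes, HTSeq 0.6.1, TopHat2 2.0.12 and Bowtie2 2.2.3 were used. The genome build and the strand setting were not given in the sources used here, so antisense RNA cannot be told apart and no genome coordinates are printed. The labels give 1 sample per strain while the series' design text speaks of duplicates. The columns were averaged as repeat runs, a choice the sources leave unsettled, and no p-value was computed.

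Identifiers were matched to RefSeq R64 locus tags (6045 matched, 6010 with a coding length). FPKM times coding length gave whole reads, within 0.02, for 99.8% or more of the genes in each column, from which library totals and read counts were taken. No coding sequence of R64 overlaps those of the 10 genes. Ratios used a pseudocount of 1 FPKM and a filter of 1 FPKM in either strain, and length-relative values a running median over 100 genes on each side. Named from each list were up to 4 genes with at least 10 FPKM and the largest length-relative ratio in size. PHO89, below 10 FPKM, was named as well, after its values were seen. The members and lists were chosen with earlier results of these data known. The calculation was tested on simulated data with a length trend planted between the strains. No trend was planted between the columns of a strain, unlike that seen between the MF02 columns, so the simulation does not cover it. Python 3.11.15, numpy 2.4.6, pandas 2.3.3 and scipy 1.17.1 were used. Alternatives were other pseudocounts, scalings, filters, thresholds, windows and single columns.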

Additional observations from a re-analysis of the deposited data

How the results depend on the processing

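The 3 genes at least 2-fold lower relative to length, GIT1, INO2 and INO1, were at least 2-fold lower under each of 16 alternatives as deposited and 18 relative to length. Their length-relative ratios ranged from -3.89 to -2.84, from -3.33 to -1.98 and from -1.79 to -1.26. Centring on the median gene could not change a length-relative ratio, so it is no check there. Trimmed mean of M values scaling, a uniform factor on UV02_HG, could change it only through the pseudocount. The number of genes at least 2-fold lower as deposited was 5. It became 8 at a 1.5-fold threshold, 3 at a 4-fold threshold and 4 with a pseudocount of 5, and single columns gave 5 to 7. Equal FPKM totals gave 9, and trimmed mean of M values scaling, upper quartile scaling or centring on the median gene gave 3. The number at least 2-fold higher went from 0 to 1, INO4, under the same 3 scalings, which moved the median of all features by 0.84, 0.65 and 0.89 in that order. Equal FPKM totals moved it by -0.93. Relative to length the number lower went from 3 to 4, with OPI3 added, in 2 settings. These were MF02 column 1 alone (OPI3 at -1.08) and UV02_HG column 1 against MF02 column 1 (-1.74). It was 2 at a 4-fold threshold, which INO1 did not reach. The number higher relative to length went from 0 to 1 for UV02_HG column 1 against MF02 column 1 (ITR2) and against MF02 column 2 (CHO1), and at a 1.5-fold threshold (CHO2). The signs of ITR2, CHO1, CHO2, OPI3 and INO4 as deposited, and of ITR1, OPI1, INO4, CHO1 and OPI3 relative to length, changed under 1 or more alternatives. No paired analysis was possible because the labels give 1 sample per strain, with no number that pairs the samples, and the columns were read as runs of 1 sample without a test, although the design text speaks of duplicates. Depth limited INO2 most, with 29 reads in 1 UV02_HG column.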

Other observations

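Outside the 10 genes, the 8-base element CATGTGAA was found before 78 other expressed genes. Relative to genes of the same length, 15 of them (19.2%) were at least 2-fold lower and 18 (23.1%) at least 2-fold higher in UV02_HG, with a median of 0.08, next to 16.8% and 17.1% of all genes. Of the 89 list genes 5 held it, namely CDS1, CKI1, CPT1, EKI1 and HNM1. Relative to length these stood at 0.07, -1.28, 0.90, -0.23 and 1.11, so they lay on both sides of genes of their length. EKI1, an ethanolamine kinase gene, and CDS1, the CDP-diacylglycerol synthase gene of the endoplasmic reticulum, were named because they hold the element, after their values were seen.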
